A study of Homo sapiens with 6 samples.

Results

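Collagen genes encode the chains of the triple-helical proteins of the extracellular matrix. They were taken here as every gene whose symbol in the platform annotation reads COL, a number, A and a number, without antisense genes. The rule found 43 collagen genes among the 19775 genes measured, and no difference between conditions entered it. The 43 genes had 112 probe sets on the array, with a single probe set for 8 genes and several for 35, and each gene was represented by the probe set with the highest mean over the 6 arrays.

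RNA came from the line H295R/TR SF-1, derived from H295R human adrenocortical carcinoma cells, in which the antibiotic doxycycline (Dox) induces SF-1, the nuclear receptor encoded by NR5A1. All 6 samples were of this line, from cells harvested after 72 h. By their labels, 3 arrays (basal) were from cells without doxycycline and 3 (Dox) from cells given it at 1 µg/mL. No array was labelled as having the drug without the inducible SF-1, so effects of the agent itself and of SF-1 cannot be told apart. An array's name gives its labelled group and its place in the order of deposition within it. The line is a single cultured tumour subclone and holds none of the capsule, vessels or stroma of an adrenal gland.

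Collagens differ in how their chains assemble. Fibrillar chains pack into the banded fibres of connective tissue, type IV chains join into the sheet-like network of basement membranes, and fibril-associated chains decorate the surface of fibres. The multiplexins XV and XVIII sit at basement membranes and release fragments that restrain vessel growth, among them endostatin from type XVIII. In the adrenal gland, the cords of cortical cells and the dense capillaries between them rest on basement membranes, while fibrillar collagen is most abundant in the capsule. A chain must be hydroxylated, folded into a trimer with its partners, exported, trimmed at its ends and cross-linked before it can bear load.

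In 2 cases arrays of opposite labels were near copies of each other, and this held for the collagen genes as well. Between the libraries named Dox 1 and basal 1, the SD of the difference over the 43 genes was 0.140 on the log2 scale, and the largest was 0.55. Between the libraries named basal 3 and Dox 2 the SD was 0.182 and the largest difference 0.58. In both pairs 0 collagen genes differed by over 2-fold, where the other pairs of arrays had SDs of 0.490 to 0.995 and 3 to 10 such genes. The libraries named basal 2 and Dox 3 formed an array set of their own, with a narrower spread of values over all probe sets (SD 2.36 and 2.37) than the others (2.43 to 2.44). NR5A1 itself had log2 levels of 5.84, 5.92 and 6.30 in the basal libraries and of 5.55, 6.21 and 6.41 in the Dox libraries, with groups that overlapped and a difference of 0.03 ± 0.24 (SE; exact permutation p = 1, where 0.1 is the smallest p that the design allows). The library named Dox 1 had the lowest NR5A1 level of all 6, against its label. The study reports SF-1 overexpression after doxycycline at the protein level, by immunoblot. Whether this probe set reads the induced transcript was not tested. Whether labels were exchanged, or RNA was shared between arrays, was not tested, and either would change what a comparison by label means. In the comparison within array sets explained next, NR5A1 differed by 0.43 ± 0.13 (adjusted p = 0.0808). Of 9 markers of adrenocortical cells 6 lay above the array median, a share close to that of all genes (13156 of 19775). CYP11B1 (4.50), INHA (5.18) and MC2R (5.49), which the cortex also makes, lay below it. The 8 markers of fibroblasts and stroma had a mean log2 level of 5.15 to 5.33 on the 6 arrays, and 4 lay above the array median. These were FAP (8.76), THY1 (6.17), PDGFRB (5.95) and DCN (5.85), while LUM (3.40) and POSTN (3.03) were among those below. The 5 endothelial markers had a mean level of 4.89 to 5.01, with 2 above the array median. The 3 measured blood markers had 4.54 to 4.79, with 1 above it. Of these stromal, endothelial and blood genes 0 passed the threshold in either comparison described next, against 0% and 6.99% of all genes. Of the adrenocortical markers, STAR and HSD3B2 fell within the array sets (-0.54 ± 0.09 and -1.40 ± 0.18), and the part of these shifts in the collagen values was not tested.

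Because of these arrays, each collagen gene is given in 2 comparisons, with values listed in the order of array 1, 2 and 3 of a label. The first set all 3 arrays labelled Dox against all 3 labelled basal. The other set the libraries named Dox 2 and Dox 3 against those named basal 1 and basal 2, within the array sets (Dox 2 with basal 1, and Dox 3 with basal 2), and left out basal 3 and Dox 1. It kept every label, had 2 arrays of each label and 1 residual degree of freedom, and was chosen with earlier results of these data known, so that its p-values are no independent evidence and its direction depends on how these 4 arrays were labelled. Differences are Dox minus basal on the log2 scale, with limma's SE, which borrows from all genes, and adjusted p-values are Benjamini-Hochberg values over the 19775 genes.

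Between the labelled groups no collagen gene passed the test, which does not show that the genes were unchanged, given the near copies across labels. With limma, 0 of 43 collagen genes passed the adjusted threshold of 0.05, as did 0 of all genes (0%), and at an unadjusted p under 0.05 there were 0 collagen genes against 109 genes in all (0.551%). The differences ran from -0.69 for COL15A1 to 0.99 for COL18A1, with a median of -0.02, and single arrays moved them. COL15A1 had -0.01 without basal 2 and -1.46 without basal 3, COL18A1 had 0.45 without basal 2 and 1.85 without basal 3, and COL11A1 had 0.05 and 1.12 without the same arrays. The lowest adjusted p among the collagen genes was 1.

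The labelled groups did not overlap in 3 collagen genes (6.98%), against 627 of all genes (3.17%). COL19A1, a fibril-associated chain, was at 4.79, 4.90 and 4.69 in the basal arrays and at 4.68, 4.47 and 4.49 in the Dox arrays, a difference of -0.24 ± 0.10. COL6A6, a chain of the beaded filaments of type VI, was at 2.86, 2.99 and 2.96 against 3.02, 3.13 and 3.30, a difference of 0.21 ± 0.10. Both of these genes lay below the array medians of 5.563 to 5.596 on every array. COL11A2, a fibrillar chain of cartilage, was at 6.67, 6.70 and 6.55 against 6.71, 6.71 and 6.84, a difference of 0.11 ± 0.11. None of the 3 passed the adjusted threshold in either comparison.

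Within the array sets, 10 of 43 collagen genes passed the adjusted threshold (23.3%), against 1383 of 19775 genes in all (6.99%). COL18A1, COL11A1, COL22A1, COL27A1 and COL21A1 were higher in the libraries named Dox 2 and Dox 3 (5 genes, against 3.42% of all genes), and COL15A1, COL4A3, COL4A4, COL3A1 and COL6A3 were lower (5 genes, against 3.58%). The median absolute difference was 0.17 over the collagen genes and 0.12 over all genes, and the median difference was -0.02 and -0.01. A difference of at least 2-fold was seen in 7 collagen genes (16.3%) and in 302 genes in all (1.53%). These 7 also had an unadjusted p under 0.05, 3 of them higher (against 0.936% of all genes) and 4 lower (against 0.592%), and with no minimum fold 14 collagen genes had such a p (32.6%, against 17.3%). The study chose several of the 10 as changed on these same samples, so the counts are not independent evidence of direction. In a bulk extract, fewer cells that carry a transcript and less of it per cell cannot be told apart. The calls rest on how the 4 arrays were chosen and modelled. Without the array set in the model the differences were the same in size (2.71 for COL18A1, -1.89 for COL15A1 and 1.47 for COL11A1) but 0 of the 10 passed. With basal 1 and Dox 2 left out in place of their near copies 0 passed, and COL18A1 had 0.21, COL15A1 -0.24, COL11A1 0.24, COL27A1 0.25 and COL4A4 -0.08. In that setting the sign turned for COL21A1 (-0.32), COL22A1 (-0.23), COL3A1 (0.57), COL4A3 (0.53) and COL6A3 (0.17). The near copies carry the opposite labels, so the difference of that array set enters nearly reversed. The losses and turned signs in that setting follow from this and are no separate check. The other 33 collagen genes had differences of -0.44 to 0.38, with adjusted p-values of 0.14 and above.

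**Figure D1:**
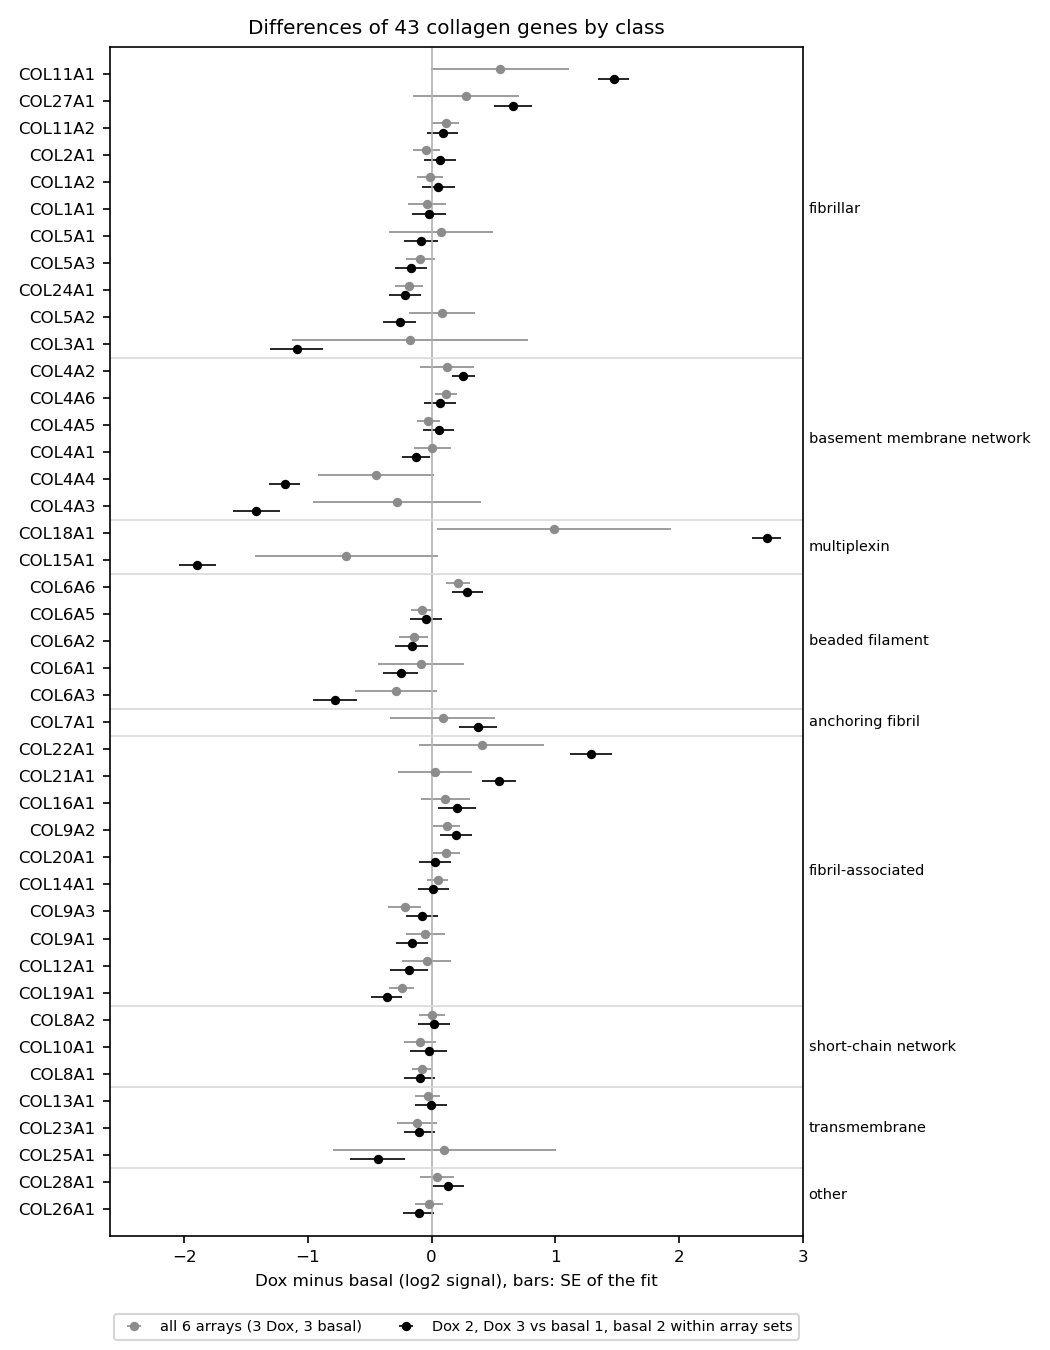
Difference (Dox minus basal, log2, x axis) of the 43 collagen genes by structural class, for all 6 arrays by label and for the 4 arrays within array sets. Error bars are limma's SE. In the 4-array comparison COL18A1 lies at 2.71 and COL15A1 at -1.89, while in the comparison by label the same genes lie at 0.99 and -0.69 with wide bars.

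**Figure D2:**
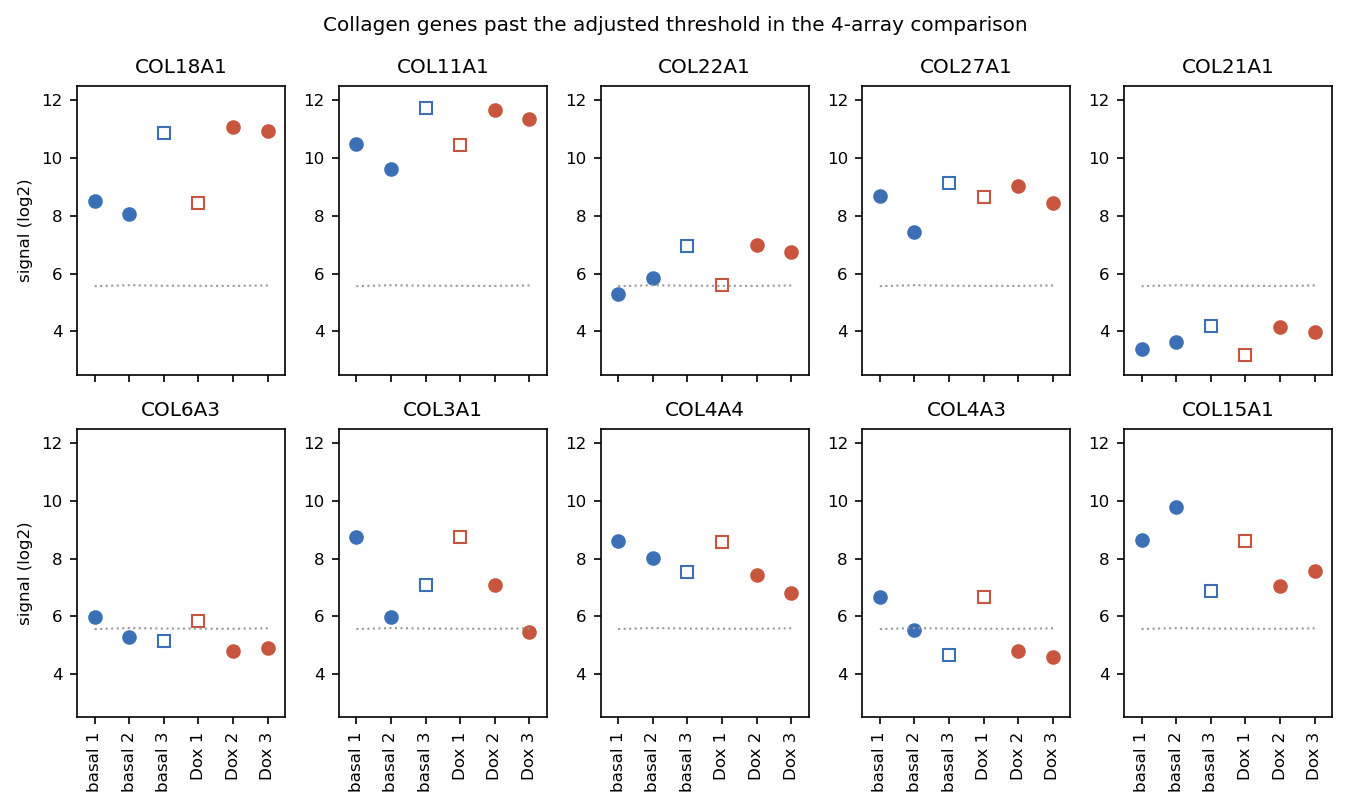
Log2 signal (y axis) of the 10 collagen genes past the adjusted threshold within the array sets, on each of the 6 arrays, with basal arrays in blue and Dox arrays in red. Open squares are the libraries named basal 3 and Dox 1, and the dotted line marks the array medians. COL18A1 is at 10.88 in basal 3 and 11.07 in Dox 2, and at 8.43 in Dox 1 and 8.52 in basal 1.

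The multiplexins showed the largest rise and the largest fall of all collagen genes within the array sets. The sequences just before their annotated starts are shown first, with that of COL11A1, the fibrillar chain with the largest rise. They are 250 bases each from RefSeq (GRCh38.p14), written 5′ to 3′ on the gene's own strand, with capitals for GGGCGG, the letters of a GC box, and for CCAAT, on either strand. COL18A1 has 2 starts in this table, and the stretch is that before the upstream one. COL18A1 is on the plus strand at chr21:45404915-45405164, COL15A1 on the plus strand at chr9:98943657-98943906 and COL11A1 on the minus strand at chr1:103108523-103108772. In the same annotation, the COL18A1 stretch overlaps the noncoding gene BNAT1 and the COL15A1 stretch overlaps COL15A1-AS1.
COL18A1: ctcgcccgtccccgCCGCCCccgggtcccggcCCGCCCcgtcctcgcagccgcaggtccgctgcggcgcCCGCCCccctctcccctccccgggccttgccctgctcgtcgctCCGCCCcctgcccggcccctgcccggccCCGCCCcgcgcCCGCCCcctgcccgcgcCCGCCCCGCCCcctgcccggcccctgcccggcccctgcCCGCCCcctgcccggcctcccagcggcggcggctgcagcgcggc
COL15A1: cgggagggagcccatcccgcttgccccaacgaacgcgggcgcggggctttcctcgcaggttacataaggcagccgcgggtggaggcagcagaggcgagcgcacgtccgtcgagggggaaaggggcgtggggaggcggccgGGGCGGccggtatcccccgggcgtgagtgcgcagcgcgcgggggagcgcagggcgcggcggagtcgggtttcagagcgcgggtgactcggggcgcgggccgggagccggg
COL11A1: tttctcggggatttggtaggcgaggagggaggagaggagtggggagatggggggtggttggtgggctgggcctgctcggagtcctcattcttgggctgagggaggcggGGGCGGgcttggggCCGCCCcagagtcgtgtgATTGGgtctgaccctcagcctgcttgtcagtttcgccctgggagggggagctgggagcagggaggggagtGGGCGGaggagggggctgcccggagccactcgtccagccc
The stretch before COL18A1 was 88.4% G and C and held 9 copies of GGGCGG. The one before COL15A1 was 76.8% G and C, with 1 copy. COL11A1 had 68.8%, with 3 copies and 1 CCAAT. These counts describe the printed letters and say nothing of binding.

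COL18A1 (chr21:45405165-45513720) encodes the chain from which endostatin is cut. It had log2 levels of 8.52, 8.07 and 10.88 across the basal libraries and of 8.43, 11.07 and 10.94 across the Dox libraries. The gene was thus low in basal 1, basal 2 and Dox 1 and high in the other 3 libraries, and the labelled groups overlapped. By label the means were 9.16 ± 1.51 and 10.15 ± 1.49 (SD, n = 3 each), a difference of 0.99 ± 0.94, smaller than the spread between arrays. COL18A1 rose by 2.71 ± 0.12 (6.54-fold, adjusted p = 3.14e-07) within the array sets, with 2.55 in one set and 2.87 in the other. Its other probe set gave 2.77.

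COL15A1 (chr9:98943907-99070787), the chain most like that of COL18A1 in build, went the opposite way. It was at 8.64, 9.80 and 6.89 across the basal libraries and at 8.61, 7.06 and 7.59 across the Dox libraries. The same 3 libraries that were high in COL18A1 were the lowest in COL15A1. By label the means were 8.44 ± 1.46 and 7.75 ± 0.79 (SD, n = 3 each), with a difference of -0.69 ± 0.74 and overlapping groups. COL15A1 fell by 1.89 ± 0.15 on the log2 scale (3.71-fold, adjusted p = 2.18e-05) within the array sets, with -1.58 in one set and -2.21 in the other. Here the array set mattered too, since COL15A1 was higher in basal 2 than in basal 1 by 1.16 and in Dox 3 than in Dox 2 by 0.53. It has a single probe set.

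Of the 11 fibrillar chains, COL11A1 and COL27A1 rose within the array sets, COL3A1 fell, and 8 did not pass the threshold. Of all genes 3.42% rose and 3.58% fell. COL11A1 (chr1:102876473-103108522), a minor chain that helps to start fibres in cartilage, had levels of 10.48, 9.61 and 11.74 in the basal libraries and of 10.45, 11.67 and 11.37 in the Dox libraries. It was again highest in basal 3, Dox 2 and Dox 3, and the labelled groups overlapped, with 10.61 ± 1.07 against 11.17 ± 0.63 (SD, n = 3 each) and a difference of 0.55 ± 0.56. It rose by 1.47 ± 0.13 within the array sets (2.78-fold, adjusted p = 3.14e-05), with 1.19 and 1.76 in the separate sets. All 3 of its probe sets rose, by 1.25 to 1.47.

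COL27A1 (chr9:114154098-114312511), another fibrillar chain of cartilage, rose less. Its levels were 8.70, 7.44 and 9.14 in the basal libraries and 8.65, 9.04 and 8.43 in the Dox libraries. Here the library named basal 2 stood lowest, and basal 1 lay above Dox 3, so that the groups overlapped with and without basal 3 and Dox 1. By label the difference was 0.28 ± 0.43, from 8.43 ± 0.88 and 8.71 ± 0.31 (SD, n = 3 each), and within the array sets it was 0.66 ± 0.15 (1.58-fold, adjusted p = 0.0232). Of its 5 probe sets 2 passed the threshold, and their differences ran from -0.05 to 0.76.

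COL3A1 (chr2:188974373-189012746) encodes the only chain of type III, the collagen of reticular fibres. Its levels were 8.75, 5.98 and 7.09 in the basal libraries and 8.74, 7.08 and 5.47 in the Dox libraries. The near copies basal 1 and Dox 1 were both highest, basal 2 and Dox 3 were lowest, and the labelled groups overlapped. By label the difference was -0.18 ± 0.95, from 7.27 ± 1.39 and 7.09 ± 1.64 (SD, n = 3 each). COL3A1 fell by 1.09 ± 0.22 on the log2 scale (2.13-fold, adjusted p = 0.00924) within the array sets, with -1.67 in one set and -0.51 in the other. The gap between the array sets was larger than this, at -2.77 for basal 2 against basal 1 and -1.61 for Dox 3 against Dox 2. Its 5 probe sets gave -1.32 to -0.07, and 2 of them passed the threshold.

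The chains of type I, the main collagen of bone, tendon and scar, did not pass the threshold in either comparison. COL1A1 was at 7.76, 8.17 and 7.86 in the basal libraries and at 7.79, 7.95 and 7.94 in the Dox libraries, with differences of -0.04 ± 0.15 by label and -0.02 ± 0.14 within the array sets (adjusted p = 0.973). Its level depended on the probe set. Another COL1A1 probe set ran from 7.45 to 8.12. The remaining ones ran from 5.22 to 5.54, 4.77 to 5.29 and 3.12 to 3.46, below the array median throughout. COL1A2 was at 4.33, 4.26 and 4.36 against 4.21, 4.21 and 4.49, below the array median throughout, with -0.01 ± 0.10 and 0.06 ± 0.14 (adjusted p = 0.904). Both chains are needed for the usual type I trimer. The 8 fibrillar chains that did not pass ranged from -0.26 to 0.09 within the array sets.

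Among the 6 chains of type IV, COL4A3 and COL4A4 fell within the array sets (against 3.58% of all genes) and the other 4 did not pass the threshold. The type IV genes lie in head-to-head pairs, in which the genes run away from each other from a shared stretch of DNA. In GRCh38.p14, 135 bases lie between COL4A4 and COL4A3 on chromosome 2, 126 between COL4A1 and COL4A2 on chromosome 13, and 379 between COL4A6 and COL4A5 on chromosome X. The first pair holds the chains that fell and the second the ubiquitous chains of basement membranes, and their shared stretches are printed for that contrast. Both are on the plus strand, at chr2:227164489-227164623 and chr13:110307158-110307283, with the same meaning of capitals as above.
between COL4A4 and COL4A3: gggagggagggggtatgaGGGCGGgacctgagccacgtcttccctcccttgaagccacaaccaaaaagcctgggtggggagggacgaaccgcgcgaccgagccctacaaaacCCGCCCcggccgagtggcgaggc
between COL4A1 and COL4A2: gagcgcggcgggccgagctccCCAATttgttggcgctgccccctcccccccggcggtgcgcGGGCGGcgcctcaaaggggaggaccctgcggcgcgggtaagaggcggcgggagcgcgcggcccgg
The stretch of COL4A4 and COL4A3 was 68.1% G and C with 2 copies of GGGCGG. That of COL4A1 and COL4A2 was 80.2% G and C with 1 copy of GGGCGG and 1 CCAAT.

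COL4A4 (chr2:226967360-227164488) and COL4A3 (chr2:227164624-227314792) encode chains that join with that of COL4A5 in the filtration barrier of the kidney. COL4A4 was at 8.62, 8.02 and 7.54 across the basal libraries and at 8.57, 7.44 and 6.82 across the Dox libraries. It was higher in basal 1, basal 2 and Dox 1 than in the other 3 libraries, so that the labelled groups overlapped. By label the means were 8.06 ± 0.54 and 7.61 ± 0.89 (SD, n = 3 each), a difference of -0.45 ± 0.47. COL4A4 fell by 1.19 ± 0.12 on the log2 scale (2.28-fold, adjusted p = 0.000115) within the array sets, with -1.18 and -1.20 in the separate sets. Of its 3 probe sets 2 passed the threshold, and they ran from -1.19 to -0.17.

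COL4A3 was at 6.68, 5.53 and 4.68 in the basal libraries and at 6.68, 4.80 and 4.58 in the Dox libraries. The same 3 libraries were higher as for COL4A4, but only basal 1 and Dox 1 lay above the array median. By label the difference was -0.28 ± 0.68, from 5.63 ± 1.01 and 5.35 ± 1.15 (SD, n = 3 each). COL4A3 fell by 1.42 ± 0.19 on the log2 scale (2.67-fold, adjusted p = 0.000729) within the array sets, with -1.89 in one set and -0.95 in the other. The call rests on 1 of its 7 probe sets, since the others gave adjusted p-values of 0.154 and above and the 7 ran from -1.42 to 0.12.

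COL4A1 (chr13:110148963-110307157) and COL4A2 (chr13:110307284-110513209), whose chains make up the common form of type IV, passed the threshold in neither comparison. COL4A1 was at 9.97, 9.66 and 9.68 in the basal libraries and at 9.95, 9.71 and 9.66 in the Dox libraries, with differences of 0.01 ± 0.15 by label and -0.13 ± 0.11 within the array sets (adjusted p = 0.659). COL4A2 was at 11.08, 11.41 and 11.15 against 11.02, 11.19 and 11.81, with 0.13 ± 0.22 and 0.26 ± 0.09 (adjusted p = 0.158). The library named Dox 3 was the highest in COL4A2.

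COL4A5 (chrX:108439838-108697545) and COL4A6 (chrX:108155614-108439458) lay below the array medians on every array. COL4A5 ranged from 3.52 to 3.77, with 0.06 ± 0.13 within the array sets (adjusted p = 0.885). COL4A6 ranged from 3.71 to 4.02, with 0.07 ± 0.13 (adjusted p = 0.872). At such signals a change of the transcript may not be visible on the array, so these values do not show that the chains were constant.

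**Figure D3:**
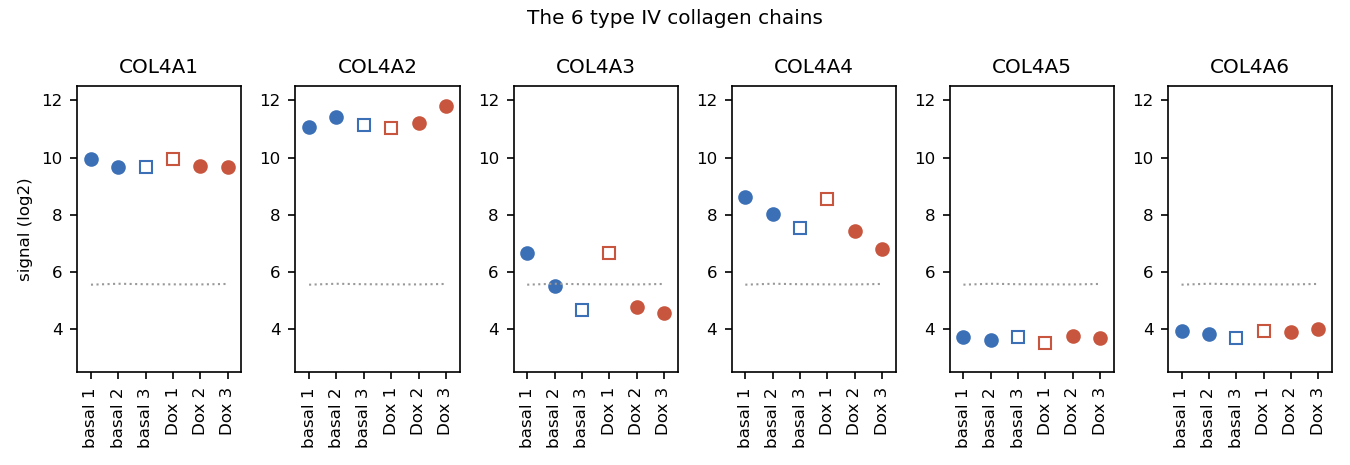
Log2 signal (y axis) of the 6 type IV chains on each of the 6 arrays, basal in blue and Dox in red, with the libraries named basal 3 and Dox 1 as open squares and the array medians as a dotted line. COL4A3 and COL4A4 step down from basal 1 to Dox 2 and from basal 2 to Dox 3, COL4A1 stays between 9.66 and 9.97, and COL4A5 and COL4A6 lie below the line.

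Of the 10 fibril-associated chains, COL22A1 and COL21A1 rose within the array sets (against 3.42% of all genes) and 8 did not pass. COL22A1, which encodes a chain found at junctions of muscle with tendon, was at 5.30, 5.84 and 6.96 in the basal libraries and at 5.60, 6.98 and 6.74 in the Dox libraries. Its levels in basal 3, Dox 2 and Dox 3 lay above those in the other 3, and the labelled groups overlapped, with 6.03 ± 0.85 against 6.44 ± 0.74 (SD, n = 3 each) and a difference of 0.40 ± 0.50. Within the array sets it rose by 1.29 ± 0.17 (2.44-fold, adjusted p = 0.000717), with 1.67 and 0.90 in the separate sets, and 2 of its 3 probe sets passed.

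COL21A1 (chr6:56056590-56394128), a chain found in the walls of vessels, gave a signal below the array median on every array. It was at 3.40, 3.63 and 4.19 in the basal libraries and at 3.18, 4.13 and 3.99 in the Dox libraries, with groups that overlapped and a difference by label of 0.03 ± 0.30. The difference within the array sets was 0.55 ± 0.14 (1.46-fold, adjusted p = 0.0345). The 8 fibril-associated chains that did not pass had differences of -0.36 to 0.20.

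COL6A3 (chr2:237324018-237414164), the longest chain of the beaded filaments of type VI, fell within the array sets (against 3.58% of all genes), while the 4 other type VI chains did not pass. It was at 5.98, 5.28 and 5.14 in the basal libraries and at 5.84, 4.78 and 4.92 in the Dox libraries. The signal lay close to the array median and the labelled groups overlapped, with a difference of -0.29 ± 0.33. COL6A3 fell by 0.78 ± 0.18 on the log2 scale (1.72-fold, adjusted p = 0.0211) within the array sets, with -1.19 in one set and -0.37 in the other. COL6A1 and COL6A2, its partners in the usual trimer, had adjusted p-values above the threshold.

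The remaining classes held no gene past the threshold, against 6.99% of all genes within the array sets. The 3 short-chain network genes, COL8A1, COL8A2 and COL10A1, had mean levels of 3.06 to 4.57, below the array medians, and differences of -0.10 to 0.02 within the array sets. The 3 transmembrane chains, COL13A1, COL23A1 and COL25A1, had -0.44 to -0.003, and COL7A1, the chain of the anchoring fibrils under the skin's basement membrane, had 0.38 ± 0.16 (adjusted p = 0.231). COL26A1 and COL28A1, which belong to no larger class, had -0.10 ± 0.13 and 0.13 ± 0.13.

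**Figure D4:**
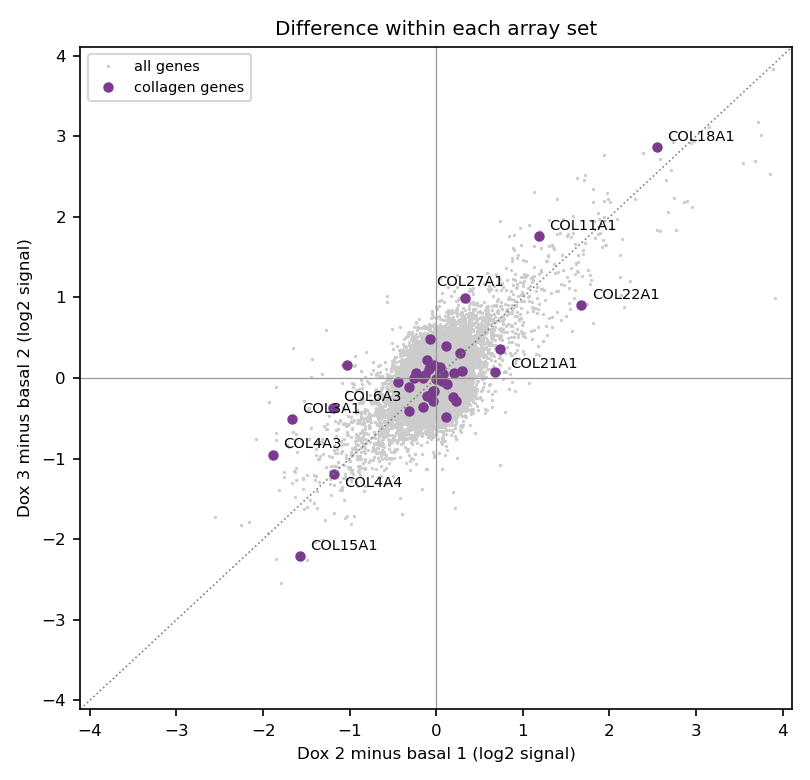
Difference of Dox 3 and basal 2 (y axis, log2) against that of Dox 2 and basal 1 (x axis, log2), with collagen genes as purple points and all genes as grey points. COL18A1 lies at 2.55 and 2.87 and COL15A1 at -1.58 and -2.21.

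The difference had the same sign in both array sets in 29 of 43 collagen genes (67.4%) and in 12034 of 19775 genes in all (60.9%). In COL4A4 the array sets gave nearly the same size, in COL22A1, COL21A1, COL4A3, COL3A1 and COL6A3 the set of basal 1 and Dox 2 gave the larger one, and in COL18A1, COL15A1, COL11A1 and COL27A1 that of basal 2 and Dox 3 did. Whether the sizes differ between the sets was not tested, since each set holds a single array of a label.

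Several collagen genes differed between the array sets within a label. With a difference of over 0.5 on the log2 scale in the same direction in both labels, 8 collagen genes (18.6%) set basal 2 and Dox 3 apart from basal 1 and Dox 2, against 2147 of all genes (10.9%). COL15A1 was higher in basal 2 and Dox 3, and COL3A1, COL4A4, COL5A1, COL6A1, COL7A1, COL25A1 and COL27A1 were lower. Each gene stands here for its brightest probe set, and other probe sets can differ in direction. Another COL4A4 probe set, which also passed the threshold within the array sets, went the opposite way. It was higher in basal 2 than in basal 1 and higher in Dox 3 than in Dox 2. Over all genes 609 were higher and 1538 lower. The labels name no cause for the array set, and none was tested.

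By brightest probe set, COL25A1, a transmembrane collagen best known from neurons, had the widest gap. It was at 6.95, 4.10 and 5.92 in the basal libraries and at 7.11, 5.92 and 4.25 in the Dox libraries, with -2.86 for basal 2 against basal 1 and -1.67 for Dox 3 against Dox 2. It gave -0.44 ± 0.22 within the array sets (adjusted p = 0.354), and its other probe sets ran up to 0.06. COL5A1, which governs the width of fibres, was at 6.13, 4.91 and 5.88 against 6.29, 5.90 and 4.97, with -1.23 and -0.93 between the array sets and -0.08 ± 0.13 within them (adjusted p = 0.84).

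On its brightest probe set COL6A1, a chain of type VI, had the same pattern as COL5A1. It was at 7.50, 6.38 and 7.04 in the basal libraries and at 7.28, 7.06 and 6.33 in the Dox libraries, with -1.12 and -0.72 between the array sets and -0.25 ± 0.14 within them (adjusted p = 0.419). COL7A1 was at 7.15, 6.37 and 7.63 against 7.15, 7.83 and 6.45, with -0.78 and -1.38 between the array sets. The other probe sets of COL6A1 and COL7A1 did not share these gaps. No other probe set of COL25A1 or COL5A1 passed the minimum difference set above in both labels. In COL25A1 and in COL5A1, a further probe set was lower in basal 2 and Dox 3 by a smaller gap. The remaining probe set of each was not lower in both labels. The next brightest of COL6A1 was at 6.38, 6.44 and 6.42 against 6.38, 6.24 and 6.21. That of COL7A1 was at 7.11, 7.07 and 7.15 against 7.10, 7.09 and 7.05. On the brightest probe set of each of these 4 genes, the arrays of one set lay closer to each other than to the arrays of their own label in the other set.

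**Figure D5:**
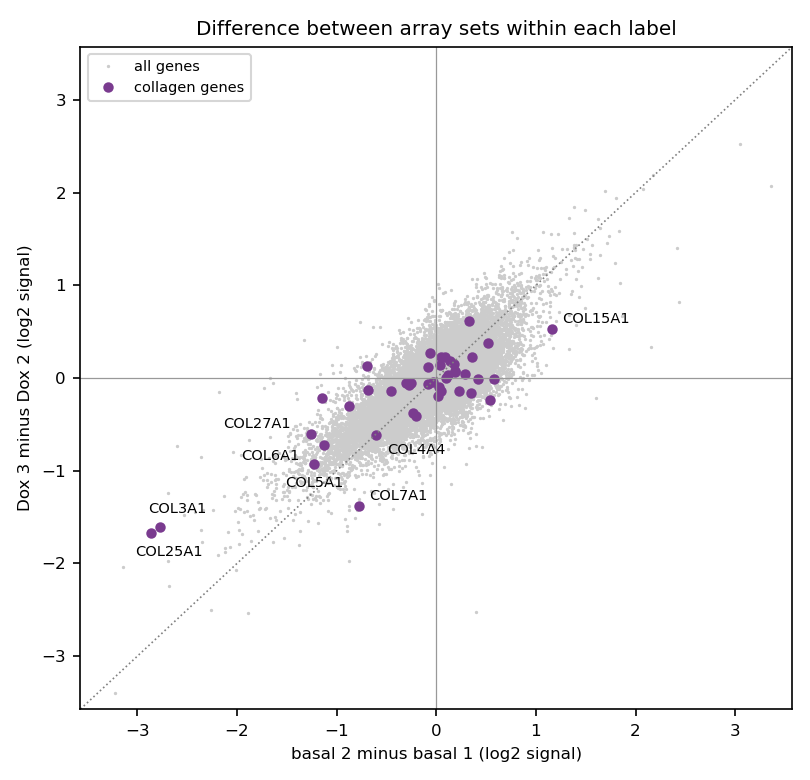
Difference of Dox 3 and Dox 2 (y axis, log2) against that of basal 2 and basal 1 (x axis, log2), with collagen genes as purple points and all genes as grey points. COL25A1 lies at -2.86 and -1.67 and COL3A1 at -2.77 and -1.61, while COL15A1 lies at 1.16 and 0.53.

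A level on an array also depends on how well a probe binds, so levels were read against the array and not between genes. Of the 43 collagen genes 21 had a mean above the array median and 22 at or below it, where 13156 of all genes lay above and 6619 at or below. The range over the 6 arrays was over 1 on the log2 scale in 15 collagen genes (34.9%) and in 1838 genes in all (9.29%), while 22 collagen genes ranged by 0.5 or less. The median range was 0.464 for the collagen genes and 0.452 for all genes.

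RefSeq windows of 250 bases before to 50 after a start were found for 31 of the 43 genes. AAGGTCA and AAGGCCA, letters that SF-1 is known to bind, were searched on both strands. Some genes have several starts, and the 31 genes had 43 windows. AAGGTCA stood in 1 collagen window, of COL7A1 (2.33%), against 3.92% of all 35116 windows, and AAGGCCA in 0, against 5.14%. GGGCGG stood in 24 of the 43 windows (55.8%) against 45%, CCAAT in 13 (30.2%) against 34.6%, and TATAAA in 7 (16.3%) against 11.5%. CAGCACC, letters within the element that the repressor REST binds, stood in 2 windows, of COL11A2 and of COL18A1 outside its printed stretch (4.65%), against 7.75%. A missing match says only that the letters are not in the window.

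The machinery that makes and handles collagen is given next, from lists that hold no collagen chain. In the comparison by label 0 members of any of these lists passed. Within the array sets, of 19 genes for the modification and folding of chains 1 rose and 2 fell, against 3.42% and 3.58% of all genes, with a median difference of -0.07. P3H2, which 3-hydroxylates prolines mainly in type IV chains, was at 10.76, 10.23 and 9.69 in the basal libraries and at 10.79, 9.74 and 9.13 in the Dox libraries, and fell by 1.06 ± 0.10 on the log2 scale (adjusted p = 7.05e-05). SERPINH1, the chaperone HSP47, fell by 0.47 ± 0.10 (adjusted p = 0.0185), and TMEM38B, an ion channel of the endoplasmic reticulum, rose by 0.51 ± 0.10 (adjusted p = 0.00739). PLOD2, a lysyl hydroxylase, had 0.34 ± 0.10 and did not pass (adjusted p = 0.0675).

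Of 24 genes for secretion, processing and cross-linking 1 rose and 3 fell within the array sets, against 3.42% and 3.58% of all genes, with a median difference of 0.002. SPARC, a matrix protein that binds collagen, was at 12.88, 12.65 and 13.37 in the basal libraries and at 12.91, 13.42 and 13.21 in the Dox libraries, and rose by 0.55 ± 0.06 (adjusted p = 0.000195). PCOLCE2, which speeds the trimming of procollagen, was at 5.89, 4.90 and 4.04 against 5.62, 3.81 and 4.14, and fell by 1.42 ± 0.24 on the log2 scale (adjusted p = 0.00327), with -2.08 in one set and -0.75 in the other. MIA2, which takes part in export from the endoplasmic reticulum, fell by 0.83 ± 0.12 (adjusted p = 0.00126), and SEC24D, a coat protein of the vesicles that carry procollagen, fell by 0.57 ± 0.13 (adjusted p = 0.0235).

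Of 12 collagen receptors 3 fell and 0 rose within the array sets, against 3.58% and 3.42% of all genes, with a median difference of -0.17. ITGA1, the integrin chain that binds type IV collagen, was at 8.23, 8.55 and 7.18 in the basal libraries and at 8.20, 7.24 and 7.30 in the Dox libraries, and fell by 1.12 ± 0.13 on the log2 scale (adjusted p = 0.000241). It shared the division of the arrays seen in COL15A1 and COL4A4, high in basal 1, basal 2 and Dox 1. DDR2, a receptor tyrosine kinase for fibrillar collagen, fell by 0.57 ± 0.11 (adjusted p = 0.00864), and ADGRG1, an adhesion receptor that binds type III, fell by 0.58 ± 0.13 (adjusted p = 0.0183). ITGA10 had -0.24 ± 0.14 and did not pass (adjusted p = 0.455).

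Of 21 genes for the breakdown of collagen and its inhibitors 2 fell and 0 rose within the array sets, against the same shares of all genes, with a median difference of -0.11. These list counts are small and none was tested against the background. CTSS, a lysosomal and secreted protease, fell by 0.79 ± 0.13 (adjusted p = 0.00328), and TIMP3, an inhibitor of metalloproteinases that stays bound to the matrix, fell by 0.41 ± 0.08 (adjusted p = 0.00873). CTSB had -0.33 ± 0.10 (adjusted p = 0.0849) and MMP2, a gelatinase that cleaves type IV collagen, had -0.41 ± 0.15 (adjusted p = 0.144), and neither passed. The study named some members of these lists as changed on the same samples, so their counts are not independent evidence of direction.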

How the data were processed

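RNA was measured on 6 Affymetrix HG-U133 Plus 2.0 arrays. The authors deposited log2 values for 54613 probe sets. GCRMA is named, without a version, in the submitters' processing notes, and Affymetrix console software in the study's methods. A statement that the 6 arrays were normalized together is not given in the sources used here. The deposited values were used without further scaling. The study calls the arrays of a condition biological replicates. The p-values rest on the spread between these arrays and on the variance that limma borrows from all genes. The number of arrays limits the precision. Within the array sets, with 1 residual degree of freedom, the borrowed part weighs heavily. COL3A1, with -1.67 and -0.51 in the separate sets, still had an SE of 0.22, so a small SE does not show that the sets agreed.

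The platform annotation gave 1 symbol for 41091 probe sets, several for 1801 and none for 11721. Symbols checked through gene identifiers changed in 0 cases, and 42 could not be checked. The brightest probe set by mean over the 6 arrays stood for a gene, and no filter on low values was applied. Of the listed genes, COLGALT2, DDR1 and CD68 had no probe set with their symbol alone.

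Groups were compared with limma 3.58.1 in R 4.3.3 (lmFit, then eBayes with a trend of variance on mean), two-sided, with Benjamini-Hochberg adjustment over 19775 genes and a threshold of 0.05. The fit was tested on simulated data. The comparison within array sets held the set (basal 2 and Dox 3 against basal 1 and Dox 2) as a block. NR5A1 was tested with an exact permutation test. The members, lists, classes and comparisons were chosen with earlier results of these data known. The rule for named genes took NR5A1, every collagen gene past the threshold, all chains of types I, III, IV, XV and XVIII, the 3 collagen genes with the highest mean and up to 4 members of each list with the smallest adjusted p. COL19A1, COL6A6, COL11A2, COL25A1, COL5A1, COL6A1, COL7A1, STAR and HSD3B2 were named after their values were seen. Promoter sequences and gene positions came from RefSeq (GRCh38.p14), the 12 genes without a window being COL14A1, COL1A1, COL1A2, COL20A1, COL22A1, COL2A1, COL3A1, COL5A2, COL6A1, COL6A5, COL8A1 and COL9A3. Plots were made in Python 3.11.15 with matplotlib 3.10.9.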

Additional observations from a re-analysis of the deposited data

How the results depend on the processing

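By label, the count of collagen genes past the adjusted threshold was 0 under every alternative run: no variance trend, low genes left out, quantile normalization, median centring, the mean of a gene's probe sets, any probe set, each replicate left out, the array set or the label style as a block, and 2-fold with an unadjusted p under 0.05. Within the array sets, the count of 10 was also 10 without the trend, with quantile normalization, with median centring and with any probe set, 8 with the mean of probe sets (COL4A3 and COL27A1 lost) and 7 of 19 tested with low genes left out. At 2-fold with an unadjusted p it was 7, with 3 higher (0.936% of all genes) and 4 lower (0.592%). It was 0 without the block and 0 with basal 1 and Dox 2 left out instead. With all 6 arrays and the array set as a block it was also 0. The label style sets basal 1 and Dox 1 against the rest, and with it as the block the count was 0. Dox 1 was already left out, so that block takes up basal 1 alone. Its differences equal those without basal 1 (2.94 for COL18A1 in both), so it is no separate check. Without the block, leaving out each replicate gave 0 to 1, the one being COL18A1 when Dox 2 or Dox 3 was left out. With basal 1 and Dox 2 left out, near copies of opposite label take their place, so the loss in that run follows from the swap. With all 6 arrays, the near copies of opposite label enter beside them, and COL18A1 had 0.99, its difference by label. The cause of the remaining losses was not tested. No paired analysis was possible because the groups share no replicate numbers in the labels, and the block on array set, which sets Dox 2 beside basal 1 and Dox 3 beside basal 2, rests on the spread of the arrays' values and not on a labelled pairing.

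Signs turned in the following cases, none of them past the threshold under the alternative. By label, COL1A1 had 0.00547 with the mean of probe sets and 0.0863 with any probe set, COL1A2 0.0798 and 0.266, COL4A1 -0.0447 and -0.0968, and COL4A6 -0.0374 and -0.209. Within the array sets, COL4A6 had -0.0644 with the mean of probe sets and -0.216 with any probe set, and COL1A1 had 0.0850 with any probe set. With all 6 arrays and the array set as a block, COL1A2 had -0.0124, COL4A1 0.00744 and COL4A5 -0.0276. With the label style as a block, COL3A1 had 0.293 and COL4A1 0.0258. With basal 1 and Dox 2 left out instead, COL21A1 had -0.32, COL22A1 -0.23, COL3A1 0.57, COL4A1 0.14, COL4A3 0.53, COL4A5 -0.0650 and COL6A3 0.17. Leaving out each replicate by label gave -0.123 to 0.0840 for COL1A1, -0.104 to 0.0341 for COL1A2, -0.15 to 0.32 for COL21A1, -0.21 to 0.64 for COL27A1, -0.999 to 0.636 for COL3A1, -0.0806 to 0.106 for COL4A1, -0.11 to 0.29 for COL4A2, -0.94 to 0.25 for COL4A3 and -0.0786 to 0.0448 for COL4A5. For the 4 arrays without the block it gave -0.23 to 0.19 for COL1A1, -0.0809 to 0.192 for COL1A2, -2.48 to 0.29 for COL3A1, -0.277 to 0.0258 for COL4A1 and -0.0523 to 0.565 for COL4A2. A lone array left in a group was assumed to vary like the others.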
